A study of Mus musculus with 20 samples.

Results

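A set of 10 genes of the redox defence was followed through the culture time of WT and Tnfr2-/- mouse colonoids, 8 targets of the transcription factor NRF2 (Nqo1, Hmox1, Gclc, Gclm, Txnrd1, Srxn1, Slc7a11 and Gpx2) and 2 metallothioneins (Mt1 and Mt2). They were chosen by name as a set, and each value was the sum over all transcripts that the deposited table lists under the symbol. All 10 were found among 35240 gene symbols, with 37 transcripts in all, and all 10 passed the filter of a mean value of at least 1 that left 13539 genes for testing. Colonoids, which are organoids grown from colonic crypts in Matrigel under IntestiCult medium, came from 2 WT (C57BL/6) mice and 2 Tnfr2-/- mice, whose germline Tnfrsf1b mutation (the tm1Mwm allele) affects every cell type. After 5 passages and filtration, cultures of both genotypes were collected on 5 days, at 1, 2 and 3 and then at 5 and 7 days post-passage (DPP), with no further treatment. This gave 20 RNA-seq libraries in 10 groups, with 1 library per mouse and day, the replicate numbers being read as the 2 mice of a genotype. Mice were 8 weeks old according to the methods of the study. All values below are normalised abundances close to the TPM scale (relative transcript abundance), in which each transcript is divided by its length, so levels of different genes can be compared. Fold changes are differences of log2(value + 1), and a call is a Benjamini-Hochberg adjusted p under 0.05 over all genes tested.

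NRF2 is held at a low level by KEAP1, which sends it for degradation. Oxidants and electrophiles block KEAP1, and NRF2 then binds antioxidant response elements, together with small MAF proteins, and raises genes for glutathione and thioredoxin metabolism, quinone reduction and haem breakdown. Metallothioneins are small cysteine-rich proteins that bind zinc and copper. Their genes are switched on through metal response elements by the zinc sensor MTF1, and also by glucocorticoids and oxidants. In the gut, Gpx2 is the epithelial glutathione peroxidase, and metallothioneins buffer zinc in epithelial and stromal cells.

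Mt1 and Mt2 were the members with the clearest genotype difference, and they are neighbours on mouse chromosome 8. In GENCODE M21 (GRCm38), Mt2 spans chr8:94172664-94173568 and Mt1 spans chr8:94179082-94180327, both on the plus strand, with 5513 bases between them. The 250 bases before their RefSeq start sites (RefSeq, GRCm38.p6, plus strand) are shown because Mt1 and Mt2 lead the genotype comparison, and their matches to metal and antioxidant response elements are marked. They cover chr8:94172368-94172617 for Mt2 and chr8:94178839-94179088 for Mt1, and capitals mark matches on either strand to the metal response element core, TGCACNC or TGCGCNC, or to the antioxidant response element core, TGACNNNGC.
Mt2: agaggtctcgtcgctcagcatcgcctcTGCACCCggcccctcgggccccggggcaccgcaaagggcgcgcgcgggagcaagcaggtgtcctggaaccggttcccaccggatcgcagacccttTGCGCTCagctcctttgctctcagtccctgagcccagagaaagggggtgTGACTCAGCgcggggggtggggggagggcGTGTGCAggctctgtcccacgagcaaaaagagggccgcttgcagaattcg
Mt1: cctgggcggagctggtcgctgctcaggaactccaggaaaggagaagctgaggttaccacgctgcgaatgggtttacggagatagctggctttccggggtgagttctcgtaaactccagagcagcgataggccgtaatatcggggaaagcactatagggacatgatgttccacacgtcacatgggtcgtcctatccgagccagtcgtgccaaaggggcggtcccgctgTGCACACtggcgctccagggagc
The Mt2 window held 3 metal response element cores and 1 antioxidant response element core, whose letters also spell an AP-1 site (TGANTCA). The Mt1 window held 1 metal response element core and no antioxidant response element core. It ends before the starts of Mt1 transcripts ENSMUST00000212291 and ENSMUST00000211807, at chr8:94179211 and chr8:94179241. Bases between the window and those starts were not searched, so its counts do not cover the whole Mt1 promoter region. Among all 32851 promoter windows of this length, 21.4% held a metal response element core, 1.26% held 3 or more, and 10.2% held an antioxidant response element core. Of the NRF2 targets, windows were at hand for Nqo1, Gclm, Txnrd1, Srxn1, Slc7a11 and Gpx2. Gclm and 1 of the 3 Txnrd1 windows each held 1 antioxidant response element core, and the windows of the other four genes held none. Metal response element cores were not limited to the metallothioneins, with 2 in the Gclm window, 1 in that of Srxn1 and 0 in those of the other four. A match is a run of letters and says nothing of occupancy, and NRF2 sites can lie farther upstream.

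The labels and the make-up of the cultures were checked first. Tnfrsf1b, the targeted gene, was at 15.3 ± 3.09 (SD, n = 10) in WT and 5.80 ± 2.84 (SD, n = 10) in Tnfr2-/- libraries, with ranges of 11.1 to 21.9 and 2.71 to 11.5 that overlapped slightly. It was lower in Tnfr2-/- by limma at the early days (log2 -1.72, adjusted p = 0.000116) and at the late days (-0.79, adjusted p = 0.0323). In Tnfr2-/- cultures it rose from early to late days (1.02, limma adjusted p = 0.00191), while the change of the genotype gap itself was 0.94 and was not called (limma adjusted p = 0.182). Library sums ran from 900655 to 1111080, and read depth cannot be read from these values. All 7 epithelial markers were present, with summed values of 11635 to 20028. All 10 fibroblast markers were present too, so the libraries held stromal RNA. Of 6 immune markers, only Cd68 reached a mean of 1, and the summed endothelial markers stayed at or below 4.17. In these bulk libraries, a change in the number of cells of a type and a change in RNA per cell cannot be told apart.

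Mt1, which binds zinc and copper, was higher in Tnfr2-/- colonoids. On the 5 days in turn its abundance was 379.7, 302, 251, 269 and 195 in WT mouse 1, and 477, 311, 249, 282 and 309 in WT mouse 2. The values were 458, 448, 406, 429 and 466 for Tnfr2-/- mouse 1, and 608, 486, 449.7, 493 and 557 for mouse 2 of that genotype. The genotypes overlapped at 1 DPP and were apart on each later day. The ratio of the Tnfr2-/- mean to the WT mean was 1.24 on the first day and then 1.52, 1.71, 1.67 and 2.03. In each mouse of both genotypes the value came down from 1 to 3 DPP. The Tnfr2-/- cultures had values of 406 or more throughout.

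Mt2, the other widely expressed metallothionein, showed the larger difference. In the same order of days WT mouse 1 had 333, 235, 149, 152 and 173, and WT mouse 2 had 436, 324, 156, 228 and 345. Tnfr2-/- mouse 1 had 447, 388, 474, 646 and 709.8, and Tnfr2-/- mouse 2 had 584, 631, 732, 685 and 642. Both Tnfr2-/- libraries lay above both WT libraries on all 5 days, an order that 0.997% of all genes showed and that no other member did. The ratio of means went from 1.34 over 1.82 to 3.95 at 3 DPP and was then 3.50 and 2.61, so the gap was narrowest just after passage and widest at 3 DPP. In WT the level dropped to its lowest point at 3 to 5 DPP and was higher again in mouse 2 at 7 DPP.

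**Figure D1:**
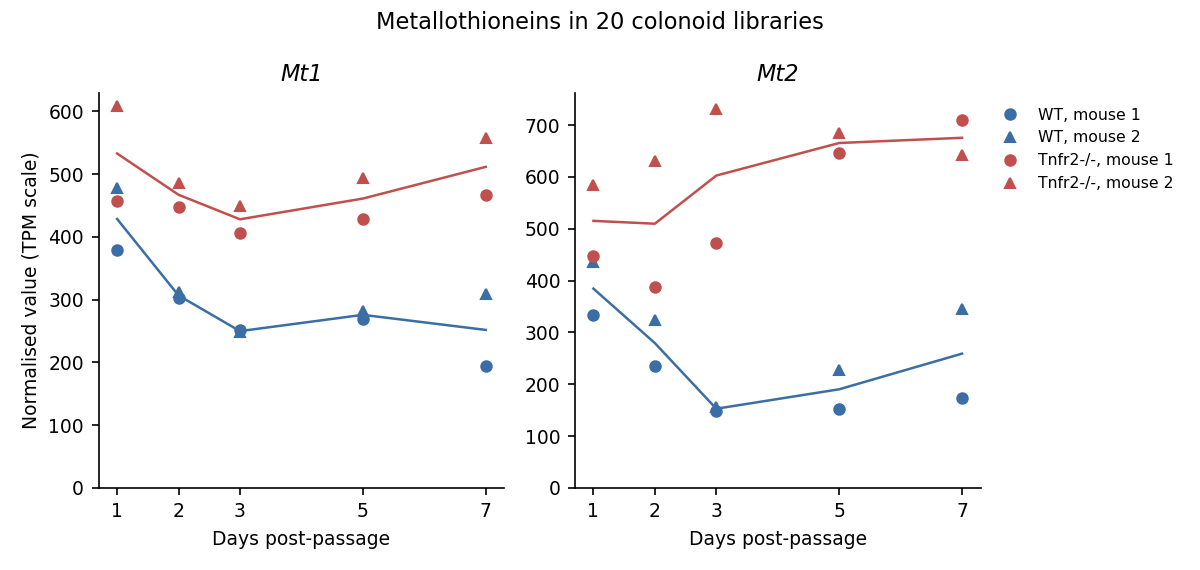
Abundance (TPM scale, vertical axis) of Mt1 and Mt2 against days post-passage, with 1 point per library, circles for mouse 1, triangles for mouse 2 and lines through the mean of the 2 libraries per genotype and day. For Mt2, both Tnfr2-/- libraries lie above both WT libraries on all 5 days, and for Mt1 the genotypes overlap at 1 DPP only.

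In a limma fit across all genes, 2 of the 10 members passed the test for genotype over all days (Benjamini-Hochberg adjusted p under 0.05), beside 7.6% of all genes, and both were metallothioneins. Over all days 3 members and 3023 genes had an unadjusted p under 0.05. Mt1 was 480.2 ± 60.6 in Tnfr2-/- and 303 ± 78.4 in WT libraries (SD, n = 10 each), or 0.69 on the log2 scale (limma, SE 0.0973 and adjusted p = 0.000324). Mt2 was 594 ± 118 against 253 ± 101 (SD, n = 10 each), or 1.30 on the log2 scale (limma, SE 0.19 and adjusted p = 0.000475). Read this way, the 5 libraries of a mouse are repeated samples of 1 animal. With each mouse reduced to its mean, 2 mice against 2, neither call was kept (limma adjusted p = 0.247 for Mt1 and 0.202 for Mt2 at the same fold changes), and 7 genes of all those tested were called.

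At the late days (5 and 7 DPP) the same comparison gave 2 of 10 members, again Mt1 and Mt2, beside 6.45% of all genes. Mt1 stood at 486 ± 53.9 in Tnfr2-/- and 264 ± 48.7 in WT libraries (SD, n = 4 each), or 0.89 on the log2 scale (limma, SE 0.14 and adjusted p = 0.00283). Mt2 stood at 671 ± 32.7 and 225 ± 86.3 (SD, n = 4 each), or 1.65 on the log2 scale (limma, SE 0.234 and adjusted p = 0.00143). For both genes, and for no other member, the 4 Tnfr2-/- libraries lay above the 4 WT libraries without overlap, which 5.35% of all genes showed. With 1 or the other Tnfr2-/- mouse left out both calls were lost, with limma adjusted p between 0.112 and 0.204 for Mt1 and between 0.102 and 0.117 for Mt2. On mouse means the limma adjusted p was 0.233 for Mt1 and 0.226 for Mt2.

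At the early days (1 to 3 DPP) Mt1 and Mt2 were again the 2 members called, beside 1.2% of all genes. On the log2 scale Mt1 differed by 0.56 (SE 0.115, limma adjusted p = 0.0312) and Mt2 by 1.07 (SE 0.191, limma adjusted p = 0.0144). The ranges of the 6 libraries per genotype overlapped for every member at the early days, when 0.576% of all genes had all Tnfr2-/- libraries above all WT libraries. The Mt1 call was close to the threshold. It was lost without any 1 of 10 of the 12 early libraries (adjusted p between 0.0543 and 0.0995), the exceptions being WT mouse 2 and Tnfr2-/- mouse 1 at 1 DPP. The Mt2 call was lost without WT mouse 1 at 1 or 2 DPP or without any 1 early library of Tnfr2-/- mouse 2 (adjusted p between 0.0503 and 0.0594). Both early calls were also lost without the whole of WT mouse 1 or of either Tnfr2-/- mouse, with adjusted p between 0.0851 and 0.556 for Mt1 and between 0.0702 and 0.48 for Mt2. On mouse means the limma adjusted p was 0.389 for each. Scaling all libraries to an equal sum, scaling by quantiles and a fit without a mean-variance trend ended the Mt1 call as well (limma adjusted p = 0.0909, 0.135 and 0.0631).

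The summed fibroblast markers moved with the metallothioneins, though not each marker did. The sum ran from 2092 to 4296 in WT and from 3148 to 4697 in Tnfr2-/- libraries at the early days, and from 1242 to 4051 in WT and from 3728 to 8594 in Tnfr2-/- libraries at the late days, with none of the 10 markers at 0 in any library. By their means, all 10 markers were higher in Tnfr2-/- at the late days, and 7 were higher and 3 lower at the early days. The widest gaps in the sum came from Dcn, with means over all days of 476 in WT and 1396 in Tnfr2-/- libraries, and Vim, with 433 and 875. The 3 that were lower at the early days, when Mt1 and Mt2 were higher, were Col3a1 (1796 in WT and 1307 in Tnfr2-/-), Pdgfra (64.0 and 45.4) and Lum (87.2 and 76.3). Across the 20 libraries, which share genotype and day structure, log2(value + 1) of the summed markers had a Pearson r of 0.71 with Mt1 and 0.76 with Mt2. Among the other members this r was 0.80 for Hmox1 and lay between -0.37 and 0.40 for the rest. Within a genotype other members had r values like those of Mt1 too. Over the 10 Tnfr2-/- libraries r was 0.85 for Hmox1, 0.64 for Mt2, 0.54 for Nqo1, 0.54 for Srxn1, 0.53 for Mt1, 0.50 for Txnrd1, 0.47 for Slc7a11, 0.27 for Gpx2, -0.11 for Gclm and -0.37 for Gclc. Over the 10 WT libraries it was 0.75 for Mt2, 0.67 for Hmox1, 0.61 for Mt1 and 0.56 for Gclc, and lay between -0.45 and 0.12 for the rest. The summed immune markers were also higher in Tnfr2-/- libraries, at 14.6 to 42.8 against 7.41 to 16.0 in WT, nearly all of it Cd68, while Adgre1 was listed at 0 in 19 of 20 libraries. General epithelial markers moved with the early difference too, since the means of all 7 were higher in Tnfr2-/- at the early days and those of 3 of 7 at the late days. Their sum ran from 11635 to 19458 in WT and from 14254 to 20028 in Tnfr2-/- libraries early, and from 14666 to 18106 and from 13105 to 18642 late. The summed goblet cell markers had a median of 228 in WT and 28.5 in Tnfr2-/- libraries, a gap that was widest for WT mouse 1. They ran from 127 to 1705 in WT mouse 1, from 2.75 to 663 in WT mouse 2 and from 3.46 to 243 in Tnfr2-/- libraries. At 7 DPP WT mouse 2, at 663, was also above both Tnfr2-/- libraries, at 205 and 243. At 5 DPP it was at 182, between the Tnfr2-/- libraries at 99.1 and 193. The summed colonocyte markers were nearer each other, with medians of 358 in WT and 315 in Tnfr2-/- libraries. Of the 5 markers in this sum, 4 had lower means over all days in Tnfr2-/- than in WT libraries. They were Car1 (191 in WT and 8.90 in Tnfr2-/-), Car4 (1.81 and 0.27), Aqp8 (2.79 and 0.33) and Slc26a3 (2.29 and 0.50). Krt20 was higher, at 249 in WT and 279 in Tnfr2-/-. Car1 ran from 1.88 to 789 in WT and from 0.97 to 20.4 in Tnfr2-/- libraries. The part of stromal, immune or epithelial RNA in the metallothionein difference was not tested.

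**Figure D2:**
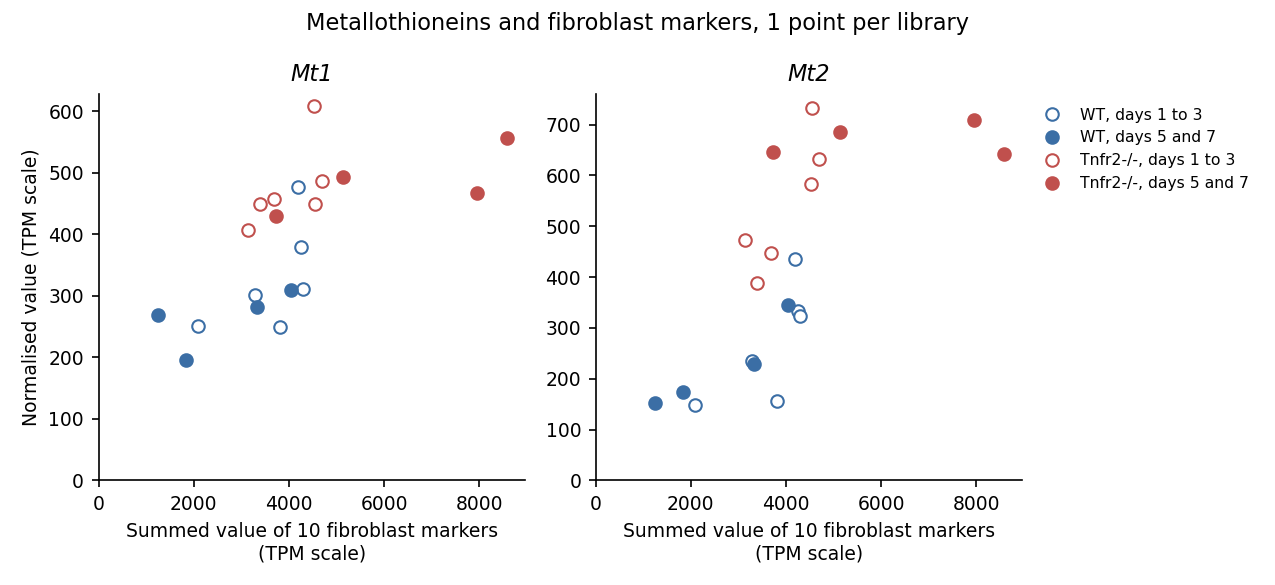
Abundance of Mt1 and Mt2 (TPM scale, vertical axes) against the summed abundance of 10 fibroblast markers (TPM scale, horizontal axis), with 1 point per library, open for days 1 to 3 and filled for days 5 and 7. WT sums run from 1242 to 4296 and Tnfr2-/- sums from 3148 to 8594, and every library of Tnfr2-/- mouse 2 lies above the highest WT sum.

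The genes whose pattern over the 20 libraries was most like that of each metallothionein were, outside the set, Meis1 for Mt1 (Pearson r of log2 values 0.92) and Dcn, a proteoglycan of fibroblasts, for Mt2 (r = 0.91). Mt1 and Mt2 had an r of 0.90 with each other. Mt1 came almost wholly (98.2%) from its principal transcript, ENSMUST00000034215. Mt2 was split between its principal transcript, ENSMUST00000034214 (62.8% of the summed value), and a shorter coding one, ENSMUST00000212806 (37.2%). Their balance varied between libraries, the shorter one being at 2.57 and 0 in the WT libraries at 1 DPP and between 38.5 and 446 in Tnfr2-/- libraries. Both Mt2 transcripts had higher means in Tnfr2-/- than in WT libraries, at 359.9 ± 87.4 against 172 ± 119 for the principal one and 234 ± 128 against 81.6 ± 60.8 for the shorter one (SD, n = 10 each). With principal transcripts alone, a choice made after seeing the data, the early Mt2 difference was 0.92 on the log2 scale and no longer called (limma adjusted p = 0.0509).

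The NRF2 targets spanned a wide range of levels. The mean over the 20 libraries was 849 ± 349.6 for Gpx2, 287 ± 95.9 for Gclm, 110.3 ± 15.8 for Txnrd1, 99.3 ± 22.3 for Gclc, 55.2 ± 15.6 for Hmox1, 53.9 ± 11.3 for Srxn1, 32.9 ± 8.13 for Nqo1 and 14.96 ± 5.86 for Slc7a11 (SD, n = 20). Neighbours in this order from Txnrd1 to Gclc and from Hmox1 to Srxn1 were closer than their spread. Among these 8, Txnrd1 varied least between libraries, with a coefficient of variation of 14.3%, and Gpx2 and Slc7a11 varied most, with 41.2% and 39.2%. Mt1 and Mt2 had means of 391 ± 114 and 424 ± 205 (SD, n = 20), between Gclm and Gpx2.

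Slc7a11, Gclc and Gclm supply glutathione. Slc7a11, the cystine importer, was lowest right after passage, at 12.7 and 5.72 in WT and 4.68 and 6.56 in Tnfr2-/- libraries at 1 DPP, and reached 18.2 and 27.0 in WT and 18.7 and 21.2 in Tnfr2-/- libraries at 7 DPP. Every mouse thus ended above its start. Gclc, the catalytic subunit of glutamate-cysteine ligase, was at 73.9 to 82.4 in the 4 libraries of 1 DPP and at 108 to 124 in those of 2 DPP. It then came down in WT mouse 1 to 60.6 at 7 DPP, while the other three mice ended at 79.2 to 104. Gclm, the modifier subunit of that ligase, scattered from 112 to 499, with both Tnfr2-/- libraries below both WT libraries at 2 DPP and overlap on the other days. Of its value, 48.4% was assigned to 1 processed transcript of 762 bases, ENSMUST00000137540, which ran from 12.8 to 269.6, and 11.4% and 1.83% to its 2 principal transcripts.

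Gpx2, which reduces peroxides with glutathione in gut epithelium, climbed through culture in both genotypes. Over the 5 days in turn WT mouse 1 had 659, 803, 931, 829.8 and 1126, and WT mouse 2 had 353, 646, 506, 952 and 1388. Tnfr2-/- mouse 1 had 431, 599, 972, 1565 and 989, and Tnfr2-/- mouse 2 had 313, 521, 925, 1308 and 1164. The Tnfr2-/- cultures peaked at 5 DPP and the WT cultures at 7 DPP, with 2 libraries behind each of these points. Almost all of the Gpx2 value (94.9%) was assigned to a transcript annotated as non-coding, ENSMUST00000220569, of 1010 bases, and 4.87% to the coding principal transcript of 1067 bases. These 2 transcripts cover nearly the same span, so the split between them is uncertain and their sum is what is described here.

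Txnrd1, thioredoxin reductase, and Srxn1, which repairs overoxidised peroxiredoxins, moved little in WT. Txnrd1 was at 91.6 to 129 in WT and 96.3 to 112 in Tnfr2-/- libraries at the early days, and at 82.1 to 120.5 in WT and 115 to 142 in Tnfr2-/- libraries at the late days. At the late days, 3 of the 4 Tnfr2-/- libraries were above each late WT library. Srxn1 was at 41.3 to 60.9 in the late WT libraries and at 48.3, 66.0, 69.7 and 85.2 in the late Tnfr2-/- libraries, where 3 of 4 again exceeded each late WT library. Both genes have short transcripts whose values varied widely. Txnrd1 transcript ENSMUST00000218694, of 581 bases, was at 24.3, 11.5, 39.4 and 29.9 in the late Tnfr2-/- libraries and between 0 and 9.42 in the early ones, but in WT mouse 2 it was also at 18.8 and 18.3 at 2 and 3 DPP and at 32.5 at 7 DPP. Its principal transcript ENSMUST00000020484 stayed between 78.9 and 90.0 in all Tnfr2-/- libraries. For Srxn1, the principal transcript was at 45.4 ± 7.08 in WT and 45.5 ± 5.24 in Tnfr2-/- libraries (SD, n = 10 each), and the short transcript ENSMUST00000128882, of 375 bases, was at 0, 18.7, 25.2 and 26.7 in the late Tnfr2-/- libraries. It also reached 25.9 in an early Tnfr2-/- library (mouse 1 at 3 DPP) and ran from 0 to 16.0 in WT libraries.

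Nqo1, which reduces quinones, and Hmox1, which breaks down haem, were the remaining members. Nqo1 was at 50.9 and 42.5 in WT and 25.4 and 28.4 in Tnfr2-/- libraries at 2 DPP, the day of its widest gap, and at 34.8 and 37.3 in WT and 36.5 and 42.7 in Tnfr2-/- libraries at 7 DPP. Both Tnfr2-/- libraries were below both WT libraries at 1 and 2 DPP and above them at 3 DPP, when WT libraries were at 35.1 and 16.9 and Tnfr2-/- libraries at 35.6 and 40.5. Hmox1 was at 44.7 to 69.5 in Tnfr2-/- and 28.6 to 69.6 in WT libraries at the early days. At 7 DPP it was at 75.9 and 102 in Tnfr2-/- and 38.7 and 54.9 in WT libraries, and both Tnfr2-/- values exceeded every other Hmox1 value. In the same 2 Tnfr2-/- libraries the summed fibroblast markers were highest, at 7954 and 8594, and the part of this in the Hmox1 value was not tested.

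**Figure D3:**
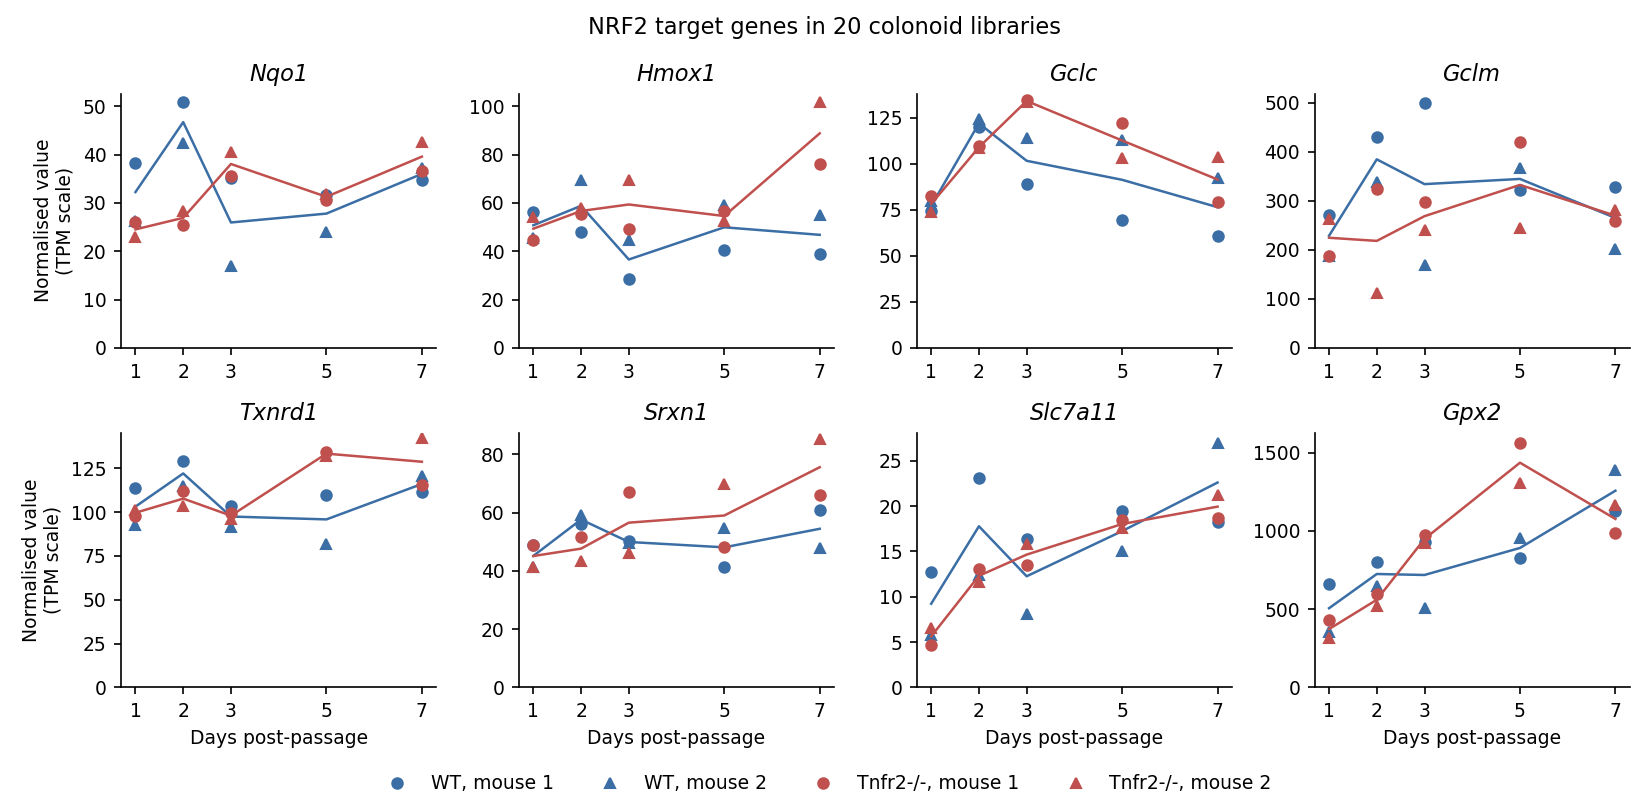
Abundance (TPM scale, vertical axes) of the 8 NRF2 targets against days post-passage, with 1 point per library, circles for mouse 1, triangles for mouse 2 and lines through the mean of the 2 libraries per genotype and day. Gpx2 and Slc7a11 are lowest at 1 DPP and higher at 7 DPP in both genotypes, and the genotypes are intermixed in most panels.

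None of the 8 NRF2 targets passed the limma genotype test over all days, at the early days or at the late days, where 1, 0 and 3 of them had an unadjusted p under 0.05, beside 22.3%, 12.9% and 22.9% of all genes. Over all days the log2 fold changes of Tnfr2-/- against WT lay between -0.24 (Gclm) and 0.34 (Hmox1). For Hmox1 the 95% interval was 0.03 to 0.64 (limma adjusted p = 0.172). At the late days Hmox1 had 0.53 (interval 0.11 to 0.96, limma adjusted p = 0.127), Srxn1 0.37 (0.02 to 0.73, adjusted p = 0.196) and Txnrd1 0.31 (0.07 to 0.56, adjusted p = 0.119). For Nqo1, Gclc, Gpx2 and Slc7a11 the late intervals held 0 and reached from -0.62 to 0.68. For Gclm the late interval was -0.79 to 0.75, the widest of all. A missed threshold does not show these members to be equal between genotypes. Calls appeared when WT mouse 2 was left out, at the late days for Gclc (0.63, limma adjusted p = 0.0159) and Hmox1 (0.79, 0.0213) and at the early days for Nqo1 (-0.47, 0.0431) and Slc7a11 (-0.69, 0.0297). The median log2 fold change of the 10 members was 0.10 over all days, -0.06 at the early days and 0.31 at the late days, beside -0.03, -0.01 and -0.05 for all genes.

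In the same fit culture time called other members than genotype did, though Mt1 or Mt2 was called for time too under some alternatives below. In WT, late against early days, 1 of 10 members passed the test, beside 20.1% of all genes, and this was Gpx2. It went from 649.6 ± 206 (SD, n = 6) to 1074 ± 242 (SD, n = 4), or 0.76 on the log2 scale (limma, SE 0.192 and adjusted p = 0.0137). Slc7a11 was at 0.66 (interval 0.13 to 1.19, limma adjusted p = 0.0743) and Mt1 at -0.30 (interval -0.57 to -0.02, limma adjusted p = 0.122). Since each replicate number has both early and late libraries, the fit was also made with the mouse as a fixed block. There 3 members were called in WT, as Slc7a11 (limma adjusted p = 0.0371) and Mt1 (0.0455) joined Gpx2. The Gpx2 call was lost without WT mouse 2, where the log2 fold change was 0.29 (limma adjusted p = 0.234). It was also lost when either Tnfr2-/- mouse, which enters only through the shared spread, was left out (limma adjusted p = 0.0814 and 0.081). Slc7a11 was called without WT mouse 1 (1.18, limma adjusted p = 0.00993) or without its library at 1, 2 or 3 DPP (0.0297, 0.0415 and 0.0323), Gclc without WT mouse 2 (-0.51, 0.0379) or its library at 5 DPP (-0.44, 0.0494), and Mt1 without WT mouse 2 at 7 DPP (-0.46, 0.0138). With principal transcripts alone, Gpx2 was no longer called in WT (0.67, limma adjusted p = 0.654), while Gclm (0.81, 0.0101) and Mt2 (-0.76, 0.0275) were.

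In Tnfr2-/- cultures, late against early days, 3 of 10 members passed the test, beside 20.3% of all genes, and all 3 rose. Gpx2 went from 627 ± 267 (SD, n = 6) to 1256 ± 243 (SD, n = 4), or 1.09 on the log2 scale (limma, SE 0.192 and adjusted p = 0.00172). Slc7a11 went from 10.9 ± 4.31 to 19.0 ± 1.57 (0.85, SE 0.246, limma adjusted p = 0.0264), and Txnrd1 from 102 ± 5.55 to 131 ± 11.4 (0.36, SE 0.103, adjusted p = 0.0258). Srxn1 was at 0.42 (interval 0.10 to 0.74, limma adjusted p = 0.0648), and it was called without Tnfr2-/- mouse 1 at 3 or 5 DPP (0.51 and 0.55, limma adjusted p = 0.0387 and 0.0414). Mt1 and Mt2 were at 0.04 (interval -0.24 to 0.31) and 0.34 (interval -0.12 to 0.80) and did not pass. The Txnrd1 call depended on how transcripts were summed. It was lost when transcripts were weighted by length (0.09, limma adjusted p = 0.565) and with principal transcripts alone (0.05, 0.818), both chosen after seeing the data, and when all libraries were scaled to an equal sum (0.27, 0.0767). With principal transcripts alone Gpx2 was at -0.02 (limma adjusted p = 0.991), a setting that drops the transcript holding 94.9% of its value, and with length weights it was still called (1.09). With length weights Srxn1 was called too (0.24, limma adjusted p = 0.0424). Markers of mature epithelium moved with these times as well. The summed goblet cell markers spanned 2.75 to 637 early and 182 to 1705 late in WT libraries, and 3.46 to 33.4 early and 99.1 to 243 late in Tnfr2-/- libraries. The summed colonocyte markers spanned 180.1 to 521 early and 302 to 965 late in WT, and 169 to 320.3 early and 323 to 374 late in Tnfr2-/- libraries. In Tnfr2-/- the colonocyte sum was almost all Krt20 (301 to 363 late), with Car1 at 20.4 or less and Car4, Aqp8 and Slc26a3 at 1.31 or less. The part of mature epithelial RNA in the time course of the members was not tested.

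The Slc7a11 and Txnrd1 calls in Tnfr2-/- cultures were also close to the threshold, and without the filter on low values Slc7a11 was not called (limma adjusted p = 0.0512). Slc7a11 was lost without any 1 of 7 libraries, namely Tnfr2-/- mouse 1 at 1, 3, 5 or 7 DPP or mouse 2 at 2, 5 or 7 DPP (adjusted p between 0.057 and 0.0895). Txnrd1 was lost without any 1 of 6, namely mouse 1 at 1 or 5 DPP or mouse 2 at 2, 3, 5 or 7 DPP (adjusted p between 0.0528 and 0.125). Without the whole of either Tnfr2-/- mouse all 3 calls were lost, with adjusted p of 0.151 and 0.181 for Gpx2, 0.417 and 0.324 for Slc7a11, and 0.266 and 0.455 for Txnrd1.

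**Figure D4:**
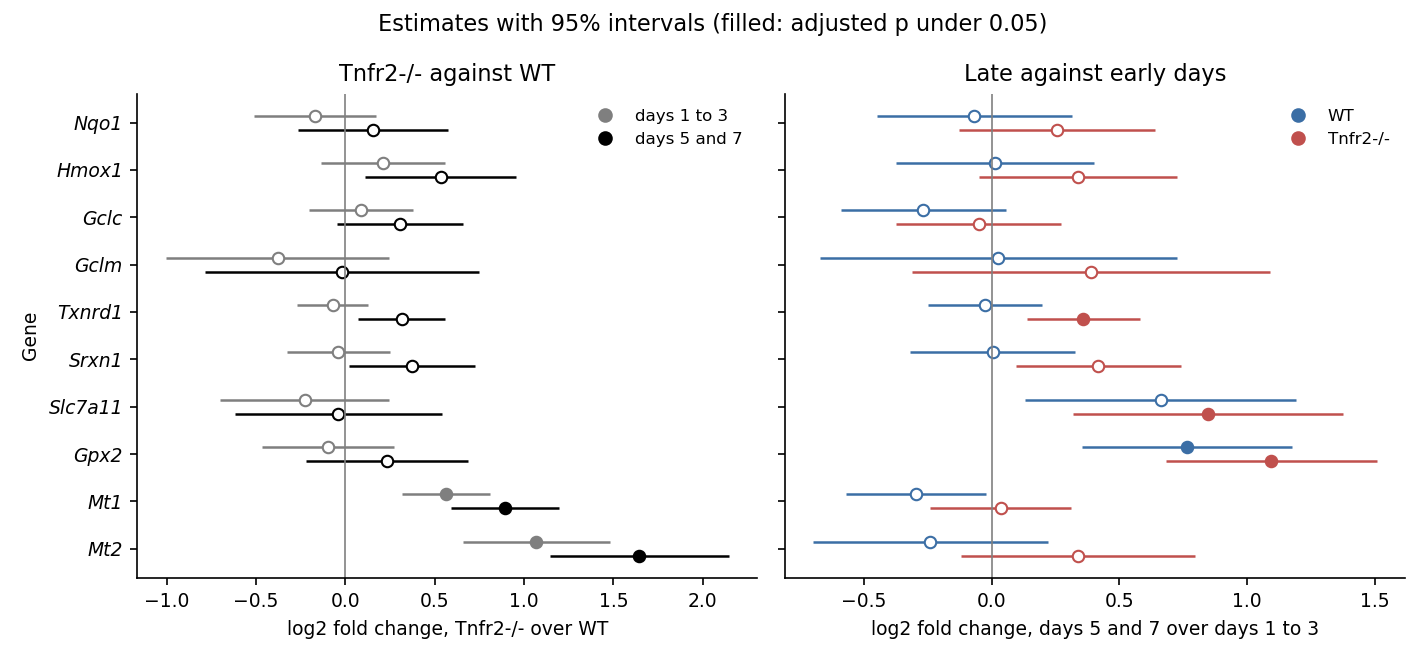
Log2 fold changes of the 10 members with 95% intervals, on the left Tnfr2-/- over WT at days 1 to 3 (grey) and days 5 and 7 (black), on the right late over early days in WT (blue) and Tnfr2-/- (red), with filled points for an adjusted p under 0.05. On the left only Mt1 and Mt2 are filled, and on the right Gpx2 is filled in both genotypes and Slc7a11 and Txnrd1 in Tnfr2-/- only, a contrast between genotypes that did not itself pass a test.

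Whether the genotype difference changed between the early and late days was tested directly. In this limma test, 0 of the 10 members passed, beside 0.148% of all genes, and 1 had an unadjusted p under 0.05, beside 11.7% of all genes, so the late rises were not shown to differ between the genotypes. The median of the 10 estimates was 0.33 beside -0.03 for all genes. All 10 were above 0 in this fit, but without WT mouse 1 Slc7a11 (-0.33), Gpx2 (-0.14) and Gclc (-0.02) were below 0, as were Gclm and Gpx2 with principal transcripts alone, so the sign was not common to the members under every setting. The estimate was 0.58 for Mt2 (interval -0.07 to 1.23, limma adjusted p = 0.484), 0.33 for Mt1 (-0.06 to 0.72, adjusted p = 0.511), 0.41 for Srxn1 (-0.04 to 0.87, adjusted p = 0.473) and 0.38 for Txnrd1 (0.07 to 0.70, adjusted p = 0.319). The member with an unadjusted p under 0.05 was Txnrd1.

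The steps between neighbouring days, taken over both genotypes, gave no member past the test. At 2 against 1 DPP, 0 of 10 members and 0.761% of all genes were called by limma, and 4 members and 1676 genes had an unadjusted p under 0.05. These were Slc7a11 with 0.96 (interval 0.38 to 1.54, limma adjusted p = 0.133), Gpx2 with 0.59 (0.14 to 1.04, adjusted p = 0.264), Gclc with 0.56 (0.21 to 0.92, adjusted p = 0.152) and Mt1 with -0.32 (-0.63 to -0.02, adjusted p = 0.362). With the mouse as a fixed block Gclc was called (limma adjusted p = 0.048), and without WT mouse 1 Slc7a11 was (1.01, limma adjusted p = 0.0413). At 3 against 2 DPP, 0 of 10 members and 0% of all genes were called by limma, with 0 members and 1449 genes at an unadjusted p under 0.05. At 5 against 3 DPP the calls were 0 of 10 members and 2.18% of all genes, and 1 member and 2278 genes had an unadjusted p under 0.05, the member being Gpx2 with 0.48 (0.03 to 0.93, limma adjusted p = 0.259), which was called without WT mouse 1 (0.75, 0.0413). At 7 against 5 DPP they were 0 of 10 members and 0.0222% of all genes, with 0 members and 1548 genes at an unadjusted p under 0.05. The means of Gpx2 and Slc7a11 over the 4 libraries of a day went from 439 to 1167 and from 7.42 to 21.3 between 1 and 7 DPP.

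Among the members, 2 pairs stood closest over the 20 libraries, Mt1 with Mt2 (Pearson r of log2 values 0.90) and Slc7a11 with Gpx2 (r = 0.87). Outside the set, the gene most like both Slc7a11 (r = 0.89) and Gpx2 (r = 0.90) was Gsta3, a glutathione transferase. Of all members Hmox1 was most like Mt2 (r = 0.67), and outside the set it was most like Inhbb (r = 0.90). For Gclc the highest r with another member was 0.35, with Hmox1. The closest genes to the others were Rab15 for Nqo1 (0.70) and Txnrd1 (0.73), Lyst for Gclm (0.80), Ccdc50 for Srxn1 (0.76) and Krtap1-5 for Gclc (0.86). The libraries share mice and days, so these are descriptions and carry no test.

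**Figure D5:**
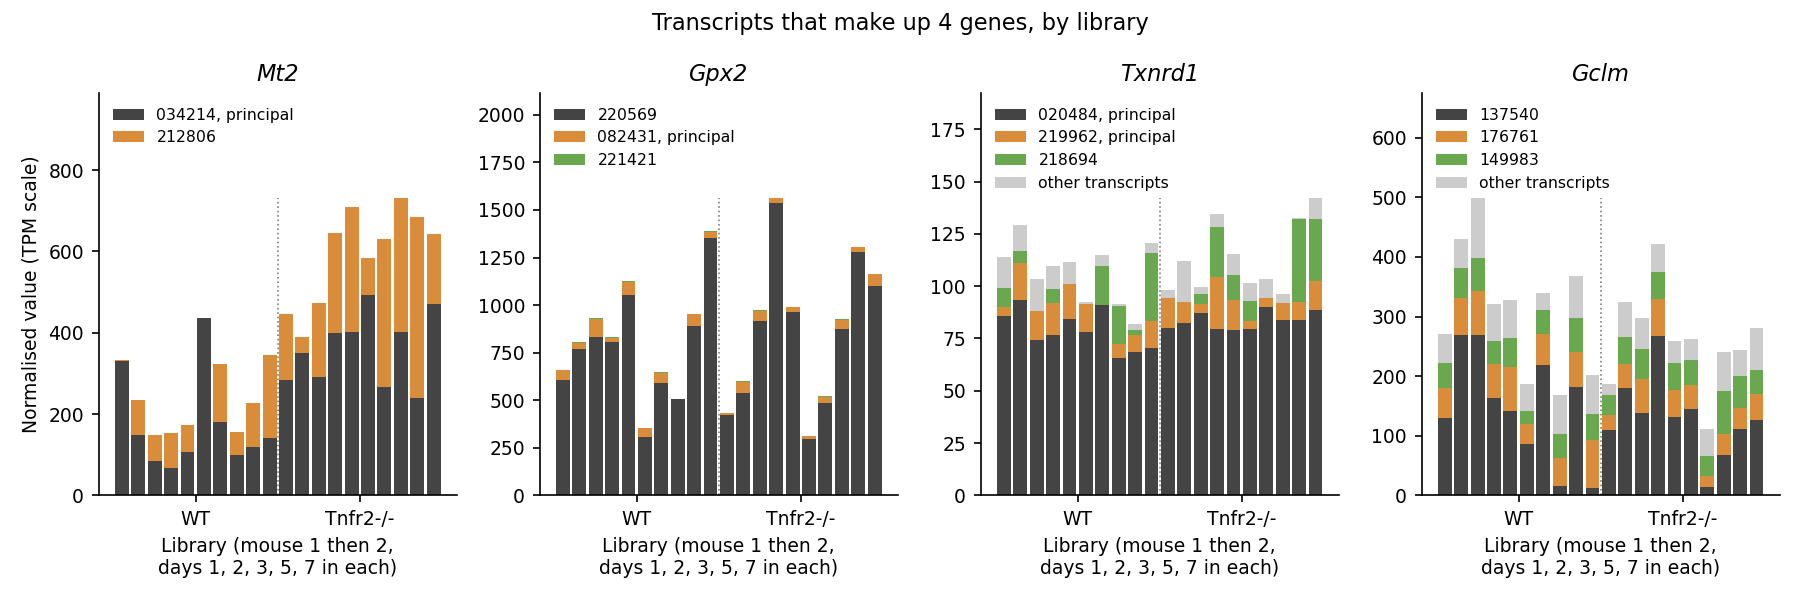
Abundance (TPM scale, vertical axes) of the transcripts that make up Mt2, Gpx2, Txnrd1 and Gclm in each of the 20 libraries, WT left of the dotted line and Tnfr2-/- right of it, with the last 6 digits of each Ensembl transcript number in the key. Gpx2 lies almost wholly on transcript ENSMUST00000220569 and Mt2 is split between 2 transcripts, while in Txnrd1 the short transcript ENSMUST00000218694 varies most, from 0 to 39.4.

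The wider redox and metal genes were read from 9 lists with 96 genes tested. Over all days 10 of them were higher and 1 was lower in Tnfr2-/-, beside 7.6% of all genes called in either direction, with a median log2 fold change of -0.0018 beside -0.03 for all genes. Of 10 NRF2 regulators 3 were higher, the small MAF protein Maff (0.56), Nfe2l1 (0.43) and Nfe2l2, which encodes NRF2 itself (0.18, limma adjusted p = 0.0453). Of 8 haem and iron genes 3 were higher, the ferritin chains Fth1 (0.76) and Ftl1 (0.46) and the biliverdin reductase Blvrb (0.61). The others were Glrx (0.77), Prdx5 (0.44), Gpx1 (0.58) and the zinc importer Slc39a4 (0.34), and the aldo-keto reductase Akr1c13 fell by 0.47. No gene of the lists for glutathione supply (10 genes), superoxide and peroxide removal (4) or NADPH supply (6) was called in either direction over all days. With the libraries of a mouse taken as correlated, 8 of the 11 were still called and Nfe2l2, Prdx5 and Slc39a4 were not, and on mouse means 0 of the 96 genes were called by limma. The lists hold few genes each, and nothing particular to a list was tested. These lists, like the members, were chosen with earlier results of these data known.

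At the early days Chac1, which degrades glutathione, was higher (0.85) and Sod3, the extracellular superoxide dismutase, lower (-0.76) in Tnfr2-/-, and these were the 2 called genes of the 96, beside 1.2% of all genes. With the libraries of a mouse taken as correlated neither was called. At the late days 8 were higher and 4 lower, beside 6.45% of all genes, and with correlated libraries 10 of these 12 were still called, the exceptions being Prdx5 and Tfrc. On mouse means 0 genes of all those tested were called by limma at those days. Among the 12 detoxification enzymes Akr1b8 was higher (1.11), and Ugt1a6a (-1.03), Akr1c13 (-0.75) and Ephx1 (-0.71) were lower, with a list median of -0.50 beside -0.05 for all genes. Glrx (1.40), Fth1 (1.17), Maff (0.86), Sod3 (0.77), Prdx5 (0.69), Gpx1 (0.69) and Sod2 (0.61) were higher and Tfrc, the transferrin receptor, was lower (-0.65). Sod3 was the 1 gene of the lists whose genotype difference itself changed between the early and late days (1.52, limma adjusted p = 0.0451), a call that was kept with correlated libraries, where Glrx joined it, and lost on mouse means.

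Late against early, 17 of the 96 genes rose and 5 fell in WT, and 16 rose and 10 fell in Tnfr2-/- cultures, beside 20.1% and 20.3% of all genes called, so the counts lay near the background. Gsta3 (2.10 in WT, 1.83 in Tnfr2-/-), the iron exporter Slc40a1 (1.78 and 1.41), Blvrb (1.41 and 1.43), the thioredoxin inhibitor Txnip (1.04 and 1.37) and Slc39a4 (1.10 and 1.16) rose in both, and Aldh3a1 fell in both (-3.09 and -2.43). Mt3, another metallothionein, averaged 2.35 in WT and 1.51 in Tnfr2-/- libraries at the early days and was listed at 0 in all 8 late libraries. At 2 against 1 DPP, when 0.761% of all genes were called, Chac1 (1.73), Ephx1 (1.34), the stress-induced Sesn2 (0.87) and Tkt (0.71) were higher and Akr1b8 was lower (-1.11). The 5 against 3 DPP step, with 2.18% of all genes called, had Blvrb (1.14) and Nfe2l1 (0.67) higher, and the other two steps had no called gene of the lists.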

How the data were processed

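RNA from 20 colonoid cultures, 2 mice for each of 2 genotypes on each of 5 days, was sequenced by the study as stranded single-end mRNA libraries. The submitters' processing notes name CASAVA, kallisto, sleuth and mm10. The authors deposited 1 table of normalised transcript abundances, treated here as signal values. They are not counts, and library sums (900655 to 1111080) lie near those of TPM without being equal, so read depth could not be read from the table. Of 113974 lines, 781 repeats with identical values were dropped, which left 113193 transcripts. The 199 without a symbol held at most 0.0989% of a library.

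Values were summed per gene symbol, and genes with a mean of at least 1 (13539) were tested as log2(value + 1) with limma 3.58.1 in R 4.3.3 (mean-variance trend, two-sided, Benjamini-Hochberg over all genes tested). A count test was not used. The all-days fit had day and genotype, and the other contrasts came from 10 group means with a shared spread. Samples were grouped by their labels. The series' design text calls the 2 replicates of a genotype mice, so a replicate number was read as 1 animal across days, which no label states day by day. Correlations of deviations between libraries of the same genotype and number ran from -0.05 to 0.31 (median 0.09, 20 pairs), and fits with the mouse as a block or on mouse means were alternatives, beside other pseudocounts, filters, scalings, no trend and each library or mouse left out. The script was tested on simulated data. The members and lists were chosen with earlier results of these data known. All members were named, and of each wider list up to 3 called genes per direction and comparison. Transcript lengths came from GENCODE M21 and promoters from RefSeq.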

Additional observations from a re-analysis of the deposited data

How the results depend on the processing

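Of 350 values of the called members under the alternatives, 287 kept the call and 1 changed sign. Of 3160 values of the members not called, 21 were called, and 152 changed sign, in 45 of 90 results. The number of members called (2 over all days, 2 early, 2 late, 0 for the difference, 1 in WT, 3 in Tnfr2-/-, 0 at each day step) moved as follows. It was 0 over all days, early and late on mouse means, 1 early when scaled to an equal sum, with quantile normalization, with no trend or with principal transcripts, 2 in WT and 1 in Tnfr2-/- late against early with principal transcripts, and 2 in Tnfr2-/- late against early with no filter or when scaled to an equal sum. The replicate block with the mouse fixed gave 3 in WT and 1 at day 2 against 1, and changed none of the other five counts it could be fitted for; a fixed mouse cannot be fitted with the genotype effects over all days, early and late. The correlated block changed no count of members. The 1 reversed value was Gpx2 in Tnfr2-/- with principal transcripts (-0.0232), a setting that drops its main transcript. Leaving out 1 library or mouse gave 2 to 2 members over all days, 0 to 4 early, 0 to 4 late, 0 to 0 for the difference, 0 to 2 in WT, 0 to 3 in Tnfr2-/-, 0 to 1 at day 2 against 1 and at day 5 against 3, and 0 to 0 at day 3 against 2 and day 7 against 5.

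Counts over all genes moved more. Over all days 1029 genes were called, and 545 with the correlated block, 7 on mouse means and 1660 with length weights. Early there were 162, and 3 on mouse means, 279 with length weights and 95 with principal transcripts. Late there were 873, and 0 on mouse means and 1664 with length weights. For the difference there were 20, and 10 with a pseudocount of 0.1, 55 with no filter, 35 with quantile normalization, 47 and 163 with the correlated and fixed block, 1 on mouse means, 55 with length weights and 4 with principal transcripts. At day 2 against 1 there were 103, and 181 and 294 with the correlated and fixed block and 193 with length weights. At day 3 against 2 there were 0, and 34 with no filter, 2 with no trend, 3 and 42 with the blocks, 7 with length weights and 16 with principal transcripts. At day 5 against 3 there were 295, and 187 with no filter, 131 with no trend, 489 and 695 with the blocks, 680 with length weights and 168 with principal transcripts. At day 7 against 5 there were 3, and 7 with a pseudocount of 5, 40 with no filter, 0 with a mean of at least 5, 5 with no trend, 11 and 108 with the blocks and 32 with length weights. Leaving out 1 library or mouse gave 146 to 1931, 14 to 720, 19 to 2186, 0 to 136, 1043 to 2893, 2 to 3430, 0 to 167, 0 to 78, 0 to 486 and 0 to 159 genes, in the order all days, early, late, difference, WT, Tnfr2-/- and the 4 day steps. Length weights and principal transcripts were chosen after seeing the data, and the cause of these changes was not tested. With 2 mice per genotype and no depths in the table, smaller differences could not be resolved.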
